A study of Homo sapiens with 10 samples.

Results

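The FASTK family is a small group of nuclear-encoded RNA-binding proteins that work in mitochondria. Its 6 members, FASTK, FASTKD1, FASTKD2, FASTKD3, FASTKD5 and TBRG4 (also called FASTKD4), were taken by gene symbol from the 59453 genes of the deposited RNA-seq count tables. All 6 were found in both tables, and their levels were set beside the 15 mRNAs and rRNAs that the mitochondrial genome encodes. The family was chosen by the read counts of FASTKD2, which were much lower in the knockout cells than in the wildtype, so that difference is described with no test.

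All libraries came from HAP1, an adherent human line with nearly 1 set of chromosomes that descends from KBM-7, a line of leukemic origin. Wildtype cells (WT), cells lacking the adenine DNA glycosylase MUTYH (genotype MUTYH-/), cells lacking the 8-oxoguanine DNA glycosylase OGG1 (OGG1-/) and cells lacking both (MUTYH-/ X OGG1-/, DKO) gave 8 untreated libraries from 2 clones each. The WT clones 2 and 11 gave 2 more libraries, collected 24 h after treatment with 100 µM H2O2. The knockouts were made with CRISPR-Cas9, and each library came from 1 clone. Both DKO clones were made from 1 OGG1-/ clone, which by its product number is clone 22, so these 3 clones share a lineage, and the parent of the MUTYH-/ clones is not given in the sources used here. With 2 clones per genotype, a difference between genotypes cannot be told apart from a difference between the clones that happened to be picked.

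Total counts ranged from 22225091 to 22674964 per library. OGG1 transcripts were lower in all 4 libraries lacking OGG1 than in the other 6, by little in 3 of them. They had 27 counts in OGG1-/ clone 1, 254 in OGG1-/ clone 22, 215 in DKO clone 4 and 223 in DKO clone 14. WT clones 2 and 11 had 275 and 295, MUTYH-/ clones 7 and 8 had 311 and 313, and the treated WT clones had 289 and 331. MUTYH transcripts overlapped between genotypes, with 101 and 83 counts in MUTYH-/ clones 7 and 8, 106 in DKO clone 4 and 50 in DKO clone 14, against 105 and 89 in WT clones 2 and 11. Small insertions or deletions need not lower a transcript, so these counts are a weak check of the labels. Defining markers of blood cells were near absent: MPO had 0 counts in all 10 libraries, SPI1 0 to 1, PTPRC 0 to 3 and CD34 3 to 23.

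Mitochondrial DNA is transcribed from both strands into long precursor RNAs. These are cut into rRNAs, tRNAs and mRNAs in foci called mitochondrial RNA granules. The FASTK proteins share the FAST and RAP domains and act on these RNAs after transcription. FASTKD2 is a granule protein that binds the 16S rRNA (MT-RNR2) and the MT-ND6 mRNA and is needed for the large subunit of the mitochondrial ribosome. A mitochondrial form of FASTK is needed for the MT-ND6 mRNA. FASTKD5 takes part in the cuts that are not marked by a tRNA, such as the one before MT-CO1. TBRG4 keeps several mitochondrial mRNAs stable, and FASTKD1 and FASTKD3 influence the levels of particular mitochondrial mRNAs.

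FASTKD2 lies on chromosome 2 at chr2:206765357-206796189 on the plus strand (GRCh38, GENCODE). MDH1B, a gene related to the malate dehydrogenases, starts next to it and runs the other way, with 29 bp between the annotated starts. The RefSeq gene start of FASTKD2 lies further downstream, at 206765606, which leaves 277 bases between it and the start of MDH1B at 206765328. The 250 bases before the RefSeq start of FASTKD2 are shown because they cover nearly all of this shared stretch, and both genes had their highest counts in the same clone (below). By the GENCODE start given above, nearly all of these bases lie inside the annotated FASTKD2 gene. Capitals mark CpG dinucleotides (RefSeq, GRCh38.p14, plus strand, chr2:206765356-206765605).
FASTKD2 promoter: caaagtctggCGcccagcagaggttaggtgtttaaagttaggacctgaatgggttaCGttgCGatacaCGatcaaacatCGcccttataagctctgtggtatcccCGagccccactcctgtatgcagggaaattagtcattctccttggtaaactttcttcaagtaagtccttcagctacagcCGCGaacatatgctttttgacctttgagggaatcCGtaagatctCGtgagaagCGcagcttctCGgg

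The stretch held 12 CpG at a GC content of 48.4%. Over 35116 RefSeq promoter windows of the same length the median was 11 CpG with quartiles of 3 and 23, and 53.4% of them had as many or fewer than FASTKD2. The window of FASTKD1 was alike in this, with 13 CpG (55.2% of promoters had as many or fewer). FASTKD3 and TBRG4 had 27 each (84.1%) and FASTK had 31 (90.5%). FASTKD5 had no window in this set, so neither its CpG nor its letter strings are given. Of 5 short letter strings searched on both strands, FASTKD2 and FASTKD1 held none. These were CCAAT (in 32% of all windows), CCGGAAG (8.52%), GGGCGG (42.6%), TATAAA (10.7%) and TGACG (21.2%). FASTK held CCAAT and GGGCGG, TBRG4 held CCGGAAG and TGACG, and FASTKD3 held CCAAT and TGACG as well as GGGCGG. A match describes the letters only.

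FASTKD2 was far higher in a single clone than in the others. WT clone 2 had 780 counts of it, which is 34.6 CPM (library-size normalized counts scaled with TMM factors over the 10 libraries). WT clone 11 had 63 counts, or 2.79 CPM. Both MUTYH-/ clones had 0 counts. OGG1-/ clone 1 had 0 and OGG1-/ clone 22 had 2, while each DKO clone had 4. The knockout groups therefore lay below both WT libraries, but the WT clones themselves differed by 3.59 on the log2 scale, against 0.41 or less for each other member. The group means were 18.7 ± 22.5 CPM in WT, 0.0444 ± 0.0629 in OGG1-/ and 0.178 ± 0.00195 in DKO (SD, n = 2).

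The size of the knockout difference depended on which WT clone was taken as the reference. Against the mean of both WT clones, FASTKD2 was at least 275-fold lower in MUTYH-/ (from the floor of 3 counts over that group's 2 libraries), 417-fold lower in OGG1-/ (95% counting interval 115 to 3450, from 2 counts) and 105-fold lower in DKO (53.1 to 244, from 8 counts). Against WT clone 2 alone, the values were at least 510-fold, 772-fold (213 to 6389) and 195-fold (98.3 to 452). Against WT clone 11 alone they were at least 41.1-fold, 62.3-fold (16.6 to 526) and 15.7-fold (7.50 to 38.0). The intervals cover counting error only. FASTKD2 passed the filter on low counts (0.448 CPM in at least 2 libraries) only through the WT libraries, whereas each of the other 5 members reached this level in all 8 untreated libraries.

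The H2O2-treated libraries of the same WT clones showed a similar gap, which is a repeat within these clones and not independent of the choice of the family. Treated clone 2 had 695 counts (31.6 CPM) and treated clone 11 had 76 (3.35 CPM). On the log2 scale clone 2 exceeded clone 11 by 3.59 without treatment and by 3.21 with it. Across the 4 WT libraries FASTKD2 differed by -0.10 ± 1.30 (log2 fold change ± SE) between treated and untreated cells (edgeR quasi-likelihood test, adjusted p = 0.99). With the clone number as a replicate block the difference was -0.0029 ± 0.19 (adjusted p = 0.996), so the wide error of the unblocked value went with the clones.

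**Figure D1:**
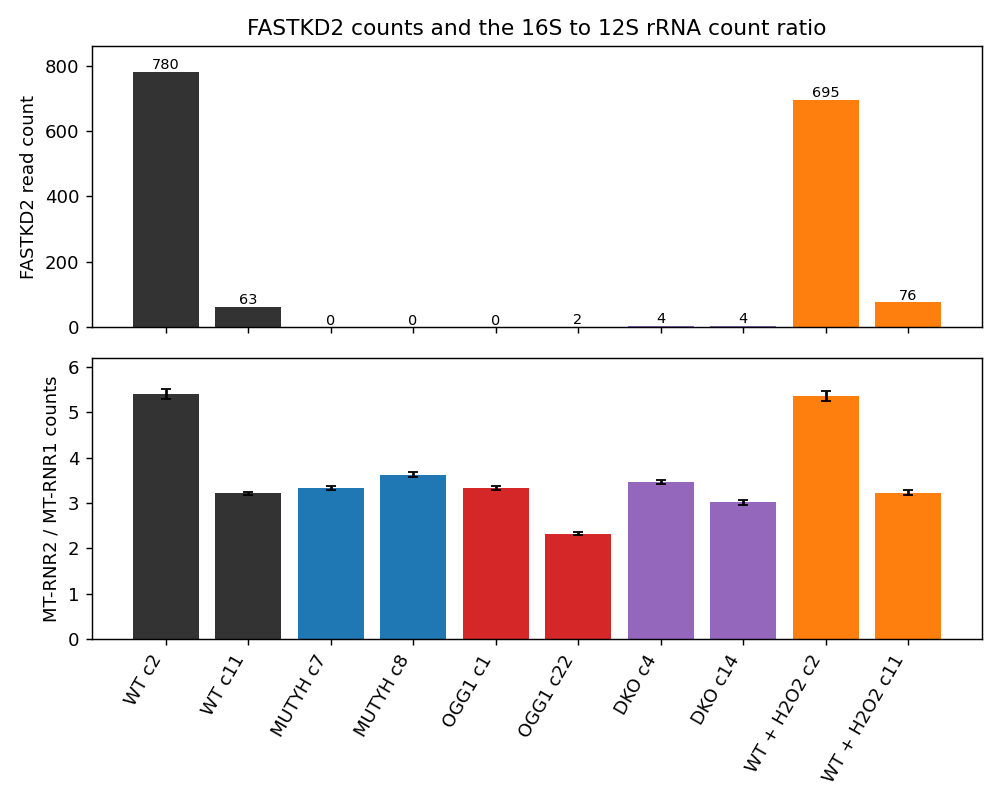
Read counts of FASTKD2 (top) and the ratio of MT-RNR2 to MT-RNR1 read counts (bottom, error bars 95% intervals for counting error) in each of the 10 libraries, colored by group. FASTKD2 reached 780 and 695 counts in the clone 2 libraries, 63 and 76 in those of WT clone 11 and at most 4 elsewhere; the ratio was 5.40 and 5.36 in clone 2 and 2.32 to 3.62 in the other libraries.

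MDH1B, across the shared start, was barely expressed. It had 4 counts in untreated WT clone 2 and 2 in treated WT clone 2, and 0 in the other 8 libraries, each of which allows up to 3 counts. The reads thus fell in the 2 libraries with high FASTKD2, but 1 of the 2 values is below that limit. CPO, a carboxypeptidase gene that starts within 500 kb, likewise had its only reads in WT clone 2, with 1 count in the untreated and 1 in the treated library, both below that limit. The well-expressed genes within this distance did not share the pattern. ZDBF2, an imprinted gene, had 588 counts in WT clone 2 and 829 after treatment, against 852 to 1478 in the other libraries. ADAM23, which encodes a membrane protein of the ADAM family, had 621 and 600 against 725 to 1072. KLF7, a transcription factor gene, had 1060 to 1340 in the 10 libraries. DYTN had 0 counts in every library and FAM237A 0 to 3. In the 5 Mb window around FASTKD2, the median deviation of 38 genes from their means ranged over the libraries from -0.12 in DKO clone 4 to 0.11 in treated WT clone 11 on the log2 scale, with 0.02 in WT clone 2 and 0.0072 in WT clone 11.

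The other 5 members were expressed in all libraries within narrow ranges. Their counts lay between 358 (FASTKD3 in OGG1-/ clone 22) and 2919 (TBRG4 in DKO clone 4). Over the 10 libraries TBRG4 ranged from 106 to 133 CPM, FASTK from 59.0 to 89.0, FASTKD1 from 44.9 to 71.5, FASTKD5 from 43.5 to 63.5 and FASTKD3 from 15.9 to 26.7. Highest and lowest library differed 1.25-fold for TBRG4 and 1.68-fold for FASTKD3, with the other 3 in between.

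Compared per length, the order of the genes changed. Per kilobase of annotated exon, WT clone 2 had 19.5 CPM of TBRG4 and 18.3 of FASTK, which were close to each other. FASTKD1 followed with 12.6, then FASTKD5 with 9.98 and FASTKD3 with 8.81. FASTKD2 came last with 3.55 in the clone in which it was highest, and with 0.286 in WT clone 11. In WT clone 11 FASTK (23.5) stood above TBRG4 (21.2), so these 2 had no fixed order. FASTKD1 and FASTKD5 likewise changed places, with 9.12 and 10.4 in DKO clone 14, while FASTKD3 stayed below FASTKD5 in every library. FASTKD3 lies at chr5:7859159-7869037 inside MTRR on the opposite strand, and FASTKD5 at chr20:3146519-3159865 inside UBOX5 on the same strand. Whether reads were counted by strand is not given in the sources used here, so part of their counts could belong to these neighbors. FASTK at chr7:151076624-151080866 and FASTKD1 at chr2:169528508-169573875 overlap no annotated gene. TBRG4 at chr7:45100100-45112047 hosts the small nucleolar RNAs SNORA5A, SNORA5B and SNORA5C.

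**Figure D2:**
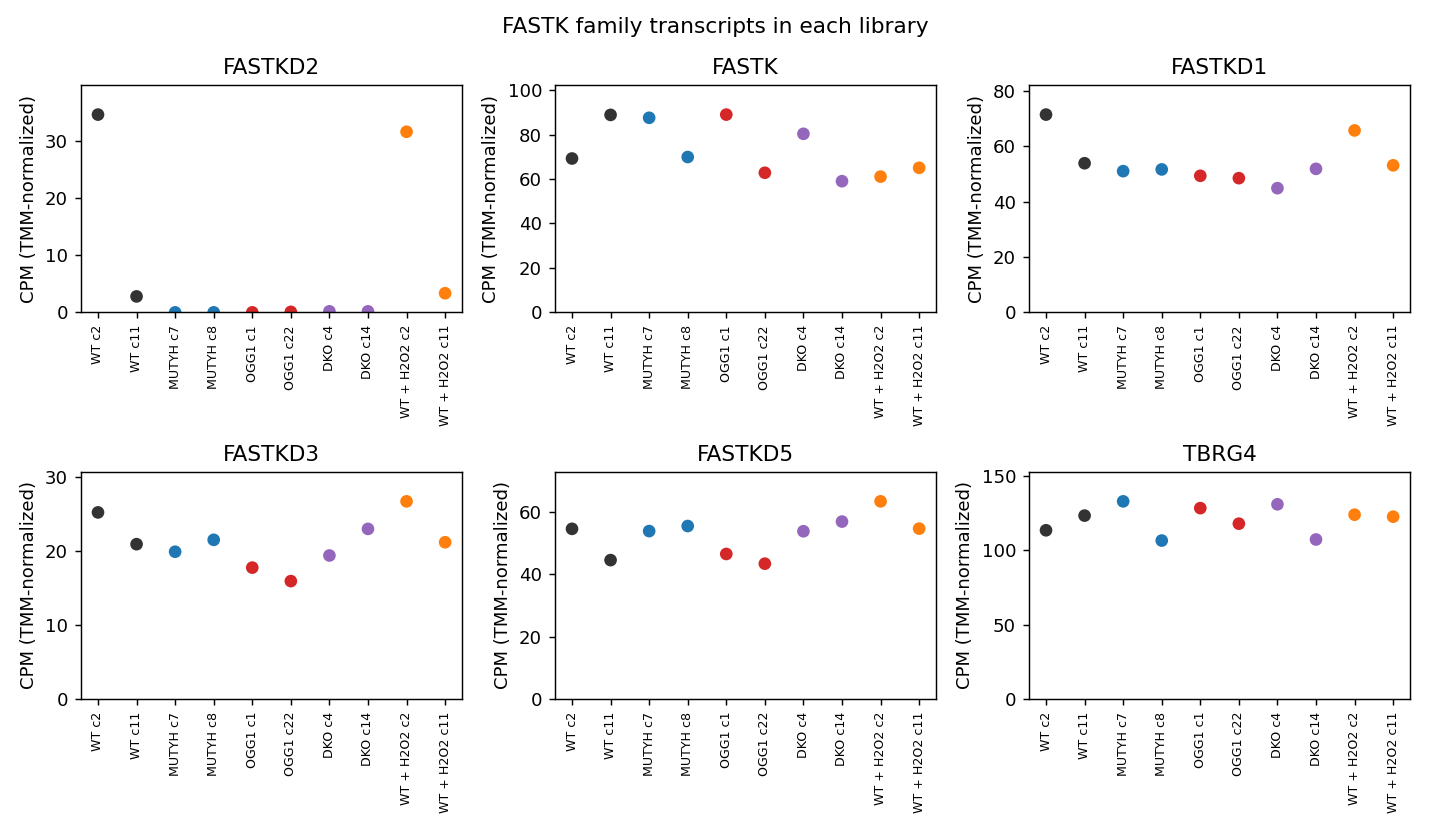
Level of each family member in each library in CPM on linear axes that start at 0, with 1 point per library, colored by group. FASTKD2 separates WT clone 2 (34.6 untreated, 31.6 treated) from all others, and the other 5 members range 1.25-fold to 1.68-fold over the 10 libraries.

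Apart from FASTKD2, no member differed between genotypes by the call rule used here, an edgeR quasi-likelihood P no higher than 0.05 before adjustment together with more than 1 of log2 fold change up or down. The count was 0 of 5 in MUTYH-/ against WT, where 1.19% of all 17881 tested genes were called, 0 of 5 in OGG1-/ (1.67%) and 0 of 5 in DKO (1.77%). None of these counts stands out from its background share. Without the fold limit 308, 490 and 526 genes had P no higher than 0.05, and after adjustment over all genes 1, 0 and 0 remained. Directly between knockouts, 0 of 5 members were called in DKO against OGG1-/ (1.44% of all genes), in DKO against MUTYH-/ (1.99%) and in OGG1-/ against MUTYH-/ (1.43%), or for the interaction of the 2 knockouts (2.0%).

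FASTKD1 was slightly lower in every knockout library. It measured 71.5 CPM in WT clone 2 and 53.9 in WT clone 11, against 51.1 and 51.7 in the MUTYH-/ clones (7 and 8). OGG1-/ clone 1 had 49.4 and clone 22 had 48.5, while DKO clone 4 had 44.9 and clone 14 had 51.9. All 6 knockout libraries thus lay below both WT libraries, which also held for 1.45% of all genes, but the gap to WT clone 11 was small. The log2 fold change was -0.29 ± 0.17 in MUTYH-/, -0.36 ± 0.17 in OGG1-/ and -0.37 ± 0.17 in DKO (SE, edgeR adjusted p = 1, 0.999 and 1). Without WT clone 2 the value was -0.08 in MUTYH-/, -0.14 in OGG1-/ and -0.16 in DKO, each under the SE of 0.19, so the size of the difference depended on WT clone 2.

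FASTKD3 was lowest in OGG1-/, with 17.7 CPM in clone 1 and 15.9 in clone 22. WT clones 2 and 11 had 25.2 and 20.9, MUTYH-/ clones 7 and 8 had 19.9 and 21.5, and DKO clones 4 and 14 had 19.4 and 23.0. The OGG1-/ libraries were below all other 8 libraries, as they were for 2.52% of all genes tested. The log2 fold change in OGG1-/ was -0.45 ± 0.18 (edgeR adjusted p = 0.999), against -0.16 ± 0.18 in MUTYH-/ and -0.12 ± 0.18 in DKO. DKO, which shares a lineage with OGG1-/ clone 22, exceeded OGG1-/ by 0.33 ± 0.18 (edgeR adjusted p = 1). MTRR, the gene around FASTKD3, had 996 and 1355 counts in OGG1-/ clones 1 and 22 and 1023 to 1460 in the other libraries.

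FASTKD5 showed its lower values in OGG1-/ as well, at 46.6 and 43.5 CPM in clones 1 and 22. WT clones 2 and 11 had 54.7 and 44.6, MUTYH-/ clones 7 and 8 had 53.9 and 55.6, and DKO clones 4 and 14 had 53.9 and 57.0. WT clone 11 lay within the OGG1-/ values, so these 2 groups overlapped. The log2 fold change against WT was 0.14 ± 0.15 in MUTYH-/, -0.14 ± 0.15 in OGG1-/ and 0.16 ± 0.15 in DKO (SE, edgeR adjusted p = 1, 0.999 and 1). Between DKO and OGG1-/ it was 0.30 ± 0.15 (edgeR adjusted p = 1).

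FASTK and TBRG4 varied between the clones of each genotype rather than between genotypes. FASTK was 69.2 and 88.8 CPM in WT clones 2 and 11, 69.9 and 87.5 in MUTYH-/ clones 8 and 7, and 62.8 and 89.0 in OGG1-/ clones 22 and 1. DKO clone 14 had 59.0 and DKO clone 4 had 80.3. TBRG4 was 113 and 123 CPM in the same WT clones, 106 and 133 in MUTYH-/ clones 8 and 7, and 118 and 128 in OGG1-/ clones 22 and 1. DKO clone 14 had 107 and DKO clone 4 had 131. For both genes the first-named clone of each genotype was lower than the other in all 4 genotypes. The log2 fold changes against WT were at most 0.06 in size for TBRG4 (SE 0.18) and ran from -0.18 to -0.0084 for FASTK (SE 0.26), with a sign that turned when WT clone 11 was left out (0.19 in MUTYH-/, 0.14 in OGG1-/ and 0.01 in DKO).

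These pairs followed the main split among the untreated libraries. The first principal component of the deviations from the genotype means, which held 49.9% of their variance, set WT clone 2, MUTYH-/ clone 8, OGG1-/ clone 22 and DKO clone 14 (set A) apart from WT clone 11, MUTYH-/ clone 7, OGG1-/ clone 1 and DKO clone 4 (set B). The labels name no batch, and the sets come from the expression values, so differences between them are given with no test. FASTK lay at 59.0 to 69.9 CPM in set A and 80.3 to 89.0 in set B, and TBRG4 at 106 to 118 and 123 to 133. For 2 of the 6 members, then, the sets did not overlap, as for 29.2% of all genes tested. Among the mitochondrially encoded genes 9 of 15 were lower in set A without overlap (MT-ND1, MT-ND2, MT-ND3, MT-ND5, MT-ND6, MT-ATP6, MT-ATP8, MT-RNR1 and MT-RNR2). The share of all counts from mitochondrially encoded genes was 3.75% to 5.02% in set A and 5.14% to 7.46% in set B. FASTKD2 was high in 1 library of set A and at 0 to 4 counts in the other 3.

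**Figure D3:**
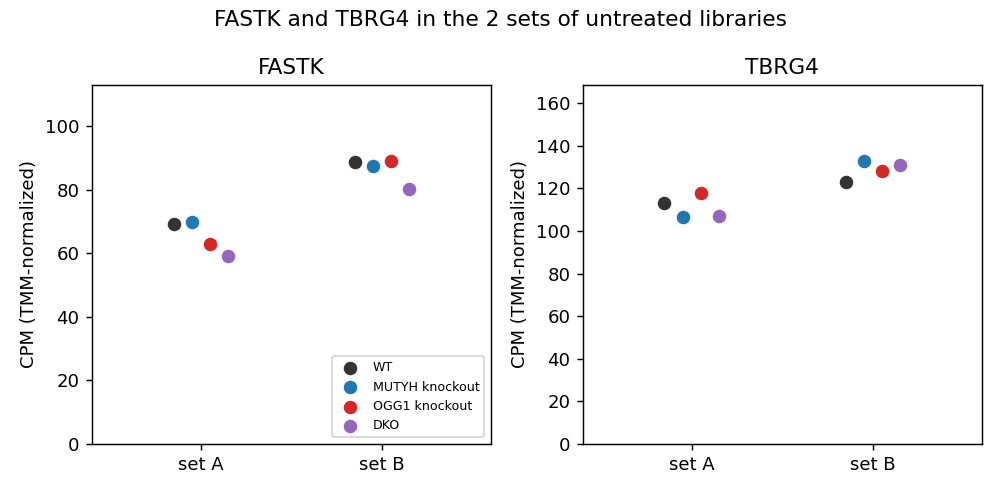
CPM of FASTK (left) and TBRG4 (right) in the 8 untreated libraries, split into set A and set B, with 1 point per clone colored by genotype and axes that start at 0. Set A lies at 59.0 to 69.9 and set B at 80.3 to 89.0 for FASTK, and at 106 to 118 and 123 to 133 for TBRG4.

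With the sets as a block, the SE of FASTK fell to 0.09, and the log2 fold change was -0.18 in DKO, -0.067 in OGG1-/ and -0.0068 in MUTYH-/. The sets were drawn from the deviations of these same libraries, so a smaller SE for a gene that follows them was built in. FASTKD1 was then at -0.28 ± 0.13, -0.35 ± 0.13 and -0.37 ± 0.13 in MUTYH-/, OGG1-/ and DKO. None of the 5 members was called in this fit either.

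**Figure D4:**
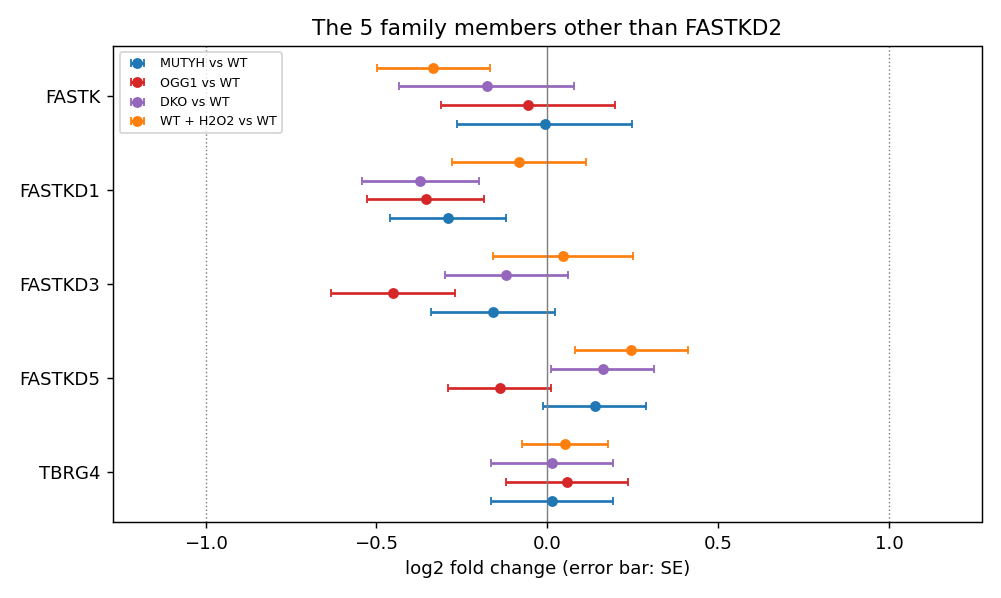
Log2 fold change (points) with SE (bars) of the 5 members other than FASTKD2 in MUTYH-/, OGG1-/ and DKO against WT, and in H2O2-treated against untreated WT; dotted lines mark the fold limit of 1. All points lie between -0.45 (FASTKD3 in OGG1-/) and 0.24 (FASTKD5 after H2O2).

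H2O2 treatment called 0 of 6 members, where 1.75% of the 16997 genes tested were called, and 1297 reached P of 0.05 or lower before adjustment but 0 after it (edgeR). FASTK went from 69.2 to 61.1 CPM in WT clone 2 and from 88.8 to 65.03 in WT clone 11, lower in both clones. Its log2 fold change was -0.33 ± 0.17 (edgeR adjusted p = 0.653), and -0.32 ± 0.13 with the clone as a replicate block (edgeR adjusted p = 0.186). FASTKD5 went from 54.7 to 63.5 CPM in clone 2 and from 44.6 to 54.7 in clone 11, at a log2 fold change of 0.24 ± 0.17 (edgeR adjusted p = 0.718; 0.286 with the block). FASTKD1, FASTKD3 and TBRG4 were at -0.08 ± 0.20, 0.05 ± 0.21 and 0.05 ± 0.13. With the block 473 genes (2.78%) were called, and again 0 of 6 members.

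The transcripts on which the family acts were examined in the same libraries. All 15 mitochondrially encoded mRNAs and rRNAs were tested, and 0 were called in MUTYH-/, OGG1-/ or DKO against WT. Their median log2 fold change was 0.05 in MUTYH-/ (10 of 15 above 0), 0.17 in OGG1-/ (13 of 15) and 0.29 in DKO (14 of 15), where the median of all genes was 0.0128, 0.0148 and 0.00079. MT-RNR2, the 16S rRNA that FASTKD2 binds, was at -0.0070 ± 0.59 in MUTYH-/, 0.16 ± 0.59 in OGG1-/ and 0.13 ± 0.59 in DKO. MT-ND6, its mRNA partner, was at 0.05 ± 0.39, 0.33 ± 0.39 and 0.22 ± 0.39. With the library sets described above as a block, the SEs fell to 0.23 for MT-RNR2 and 0.14 for MT-ND6. Both genes follow the sets, so this fall was built in, and SEs and p-values of genes that follow the sets are understated in this fit. MT-RNR2 was then at -0.06, -0.0052 and -0.01 in MUTYH-/, OGG1-/ and DKO, and MT-ND6 at 0.02, 0.31 and 0.16. MT-RNR1, the 12S rRNA, was at 0.22 ± 0.12, 0.58 ± 0.12 and 0.37 ± 0.12 in this fit (edgeR adjusted p = 0.997, 0.616 and 0.595). The genes above 0 numbered 8, 10 and 13 of 15, with 0 called and 0 at an adjusted p of 0.05 or lower in each knockout. Neither fit thus found a shift of MT-RNR2 or MT-ND6 beyond the spread it left between clones after adjustment.

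The ratio of the 2 mitochondrial rRNAs set WT clone 2 apart. MT-RNR2 counts divided by MT-RNR1 counts (12S rRNA of the small subunit) gave 5.40 in WT clone 2 (95% interval for counting error 5.30 to 5.51) and 5.36 (5.26 to 5.48) in treated WT clone 2. WT clone 11 had 3.21 and, treated, 3.23. MUTYH-/ clones 7 and 8 had 3.34 and 3.62 and OGG1-/ clones 1 and 22 had 3.33 and 2.32. DKO clone 4 had 3.46 and DKO clone 14 had 3.01. Both libraries of the clone with high FASTKD2 were thus above the 8 libraries of the other 7 clones. WT clone 11, with 63 and 76 counts of FASTKD2, lay among the knockout libraries, which had 0 to 4. This is 1 clone, so no test of the relation is possible. Within set A the other 3 clones had 2.32 to 3.62. How the libraries treated rRNA is not given in the sources used here, and mitochondrial rRNA counts depend on it.

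Against the 8 libraries of the other clones, the 12S rRNA of clone 2 lay outside the range and the 16S rRNA did not. MT-RNR1 made up 1.09% of the counts of the 15 mitochondrially encoded genes in WT clone 2 and 1.44% after treatment, against 1.74% to 2.63% in the other 8 libraries. MT-RNR2 made up 5.87% and 7.71%, within the 4.85% to 8.68% of the others. In CPM, MT-RNR1 was at 539 and 492 in the clone 2 libraries and at 709 to 1717 in the others. Within set A, however, MT-RNR2 was highest in WT clone 2, at 2909 CPM against 2108 to 2571, while its share lay among those of the set. A part of the 16S rRNA in the higher ratio was not tested.

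Other mitochondrial transcripts also took a different share in clone 2. MT-ND6, which encodes a complex I subunit and lies on the light strand, made up 1.02% and 0.930% of the 15 genes' counts in untreated and treated clone 2, below the 1.12% to 1.38% of the other libraries. As a share of the mitochondrial mRNAs alone it was 1.10% and 1.02%, against 1.2% to 1.55%. MT-ND5, also of complex I, was below the others (3.98% and 3.74%, against 4.26% to 5.66%). MT-CO2, a subunit of complex IV, was above them (7.27% and 7.96%, against 5.22% to 6.77%). The other 11 genes were not outside the range of the 8 libraries on the same side in both clone 2 libraries. MT-CO1 made up 25.6% in untreated clone 2 and 20.0% after treatment, and 14.1% to 23.4% in the others.

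**Figure D5:**
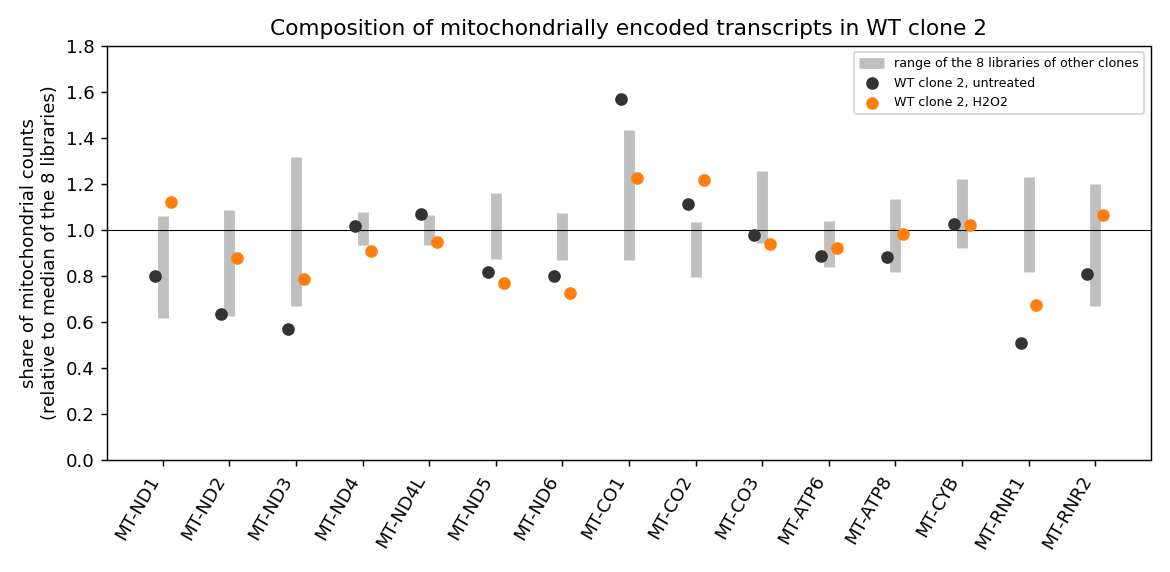
Share of each of the 15 mitochondrially encoded genes in their summed counts, divided by the median share over the 8 libraries of the other clones (linear axis); gray bars span those 8 libraries, and points show WT clone 2 untreated (black) and treated (orange). MT-RNR1, MT-ND5 and MT-ND6 lie below the gray bars and MT-CO2 above in both clone 2 libraries.

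After H2O2 all 15 mitochondrially encoded genes had a log2 fold change below 0, with a median of -0.62 where that of all genes was 0.00018. Values ran from -0.88 ± 0.33 for MT-CO1 to -0.38 ± 0.36 for MT-ND3, and 0 of 15 were called because none passed the fold limit. Without the block 10 of 15 reached P of 0.05 or lower in edgeR, as did 1297 of all 16997 genes. After adjustment 0 passed. The clone as a replicate block left fewer residual degrees of freedom, so its SEs rest largely on a spread pooled over genes. They only partly reflect how far the change of a gene differed between the WT clones. The share of all genes passing with the block is not given. Whether the next count stands out from all genes was thus not tested. With the block 10 of 15 passed an adjusted p of 0.05 (edgeR). Of these, MT-CO1 was at -0.87 ± 0.13 (edgeR adjusted p = 0.00583), MT-ND6 at -0.78 ± 0.13 (0.00873) and MT-CO2 at -0.58 ± 0.14 (0.0431). The rRNAs were at -0.43 ± 0.15 each (edgeR adjusted p = 0.139 for MT-RNR1 and 0.142 for MT-RNR2). The fall was not alike in both clones for every gene. MT-RNR2 went from 2909 to 2641 CPM in clone 2 and from 4142 to 2523 in clone 11. MT-ND1 went from 2957 to 2865 in clone 2 and from 3834 to 2181 in clone 11. MT-CO1 fell clearly in both, from 12666 to 6851 in clone 2 and from 7565 to 4206 in clone 11. The mitochondrially encoded share of all counts went from 5.02% to 3.38% in clone 2 and from 5.14% to 2.995% in clone 11. The rRNA ratio stayed within its counting interval in both clones during this fall.

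Nuclear genes of mitochondrial RNA transcription, processing, ribosome assembly and translation gave a background for the family. Of 70 such genes tested, 0 were called in MUTYH-/, OGG1-/ or DKO against WT or after H2O2. Their median log2 fold change was -0.0088, -0.057 and -0.026 in the 3 knockouts and 0.097 after H2O2, where 51 of 70 were above 0. After H2O2, 16 of 70 reached P of 0.05 or lower in edgeR with the clone as a replicate block (14 above 0 and 2 below). The share of all genes at this P is not given for that fit. Without the block 4 of 70 reached it, where 1297 of all 16997 genes did, so this count did not stand out. After adjustment 0 remained in either fit. The 4 were TFAM, the mitochondrial transcription and packaging factor (0.33 ± 0.12), the helicase TWNK (0.39 ± 0.13), the release factor gene MTRF1L (0.41 ± 0.15) and the ribosome GTPase gene MTG1 (-0.59 ± 0.23), each at an adjusted p of 0.638. These 4 were singled out after their values were seen. POLRMT, the mitochondrial RNA polymerase, passed in MUTYH-/ only when MUTYH-/ clone 8 was left out (1.07).

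Some of the genes whose pattern was most like that of FASTKD2 were also far higher in WT clone 2. Others differed mainly between WT and knockout libraries. Likeness was Pearson's correlation of log2 CPM over the 10 libraries, which include 2 pairs from the same clones, among 14773 genes with a mean of at least 1 CPM, and it is given as a description. The first was MARK1, a kinase gene (0.955), followed by ALDH1A2, which makes retinoic acid (0.930), CORO1C (0.928), LINC00649 (0.926), RAB11FIP2 (0.923), C5orf38 (0.921), WDHD1 (0.913), FOLH1 (0.912), PCYT1B (0.908) and CCND2, a cyclin gene (0.894). Some of them matched it in size. ALDH1A2 had 1385 and 1650 counts in untreated and treated clone 2 and 69 and 107 in those of WT clone 11. Its counts in knockout libraries were 2 to 64. FOLH1 had 270 and 307 in clone 2, and its knockout values of 0 to 11 lay below the 14 and 22 of WT clone 11. Others varied little, such as MARK1 with 912 and 986 counts in clone 2 and 611 to 853 elsewhere. None of the 10 is a member of the family or of the mitochondrial lists. Over the 8 untreated libraries alone, MARK1 stayed first at 0.959, followed by WDHD1 at 0.925 and OR2T8 at 0.919.

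The other members had other closest genes over the 10 libraries. These were AC009133.1, LEMD2 and CNTNAP1 for FASTK (0.988 to 0.980), PMVK, PPP1R15B and PIK3C2B for FASTKD1 (0.957 to 0.95), PLAAT4, RPRD2 and TTK for FASTKD3 (first at 0.970), TFDP1, POLR2B and METTL16 for FASTKD5 (first at 0.956), and PIGB, CABIN1 and CDK11B for TBRG4 (first at 0.969). No member was among the few closest genes listed for another, out of 14773. Whether the members varied together was not tested.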

How the data were processed

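RNA of 10 HAP1 libraries was sequenced. The authors deposited whole-number read counts per gene, not normalized, from Hisat2 2.2.1 alignment to GRCh38 and featureCounts (Rsubread, Ensembl release 103); strand setting, multi-mapping reads and rRNA handling are not given in the sources used here, so MT-ND6, overlapping mitochondrial genes and nuclear copies of mitochondrial sequence are uncertain. The untreated WT columns were identical in both tables and used once. Total counts were 22225091 to 22674964.

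Genes were filtered with filterByExpr and tested with the quasi-likelihood F test of edgeR 4.0.16 (R 4.3.3, TMM, tested on simulated data): 1 fit over the 8 untreated libraries (17881 genes, 4 residual degrees of freedom) and 1 over the 4 WT libraries (16997 genes, 2 residual degrees of freedom). P-values were adjusted by Benjamini-Hochberg over all genes. TMM factors were 0.967 to 1.01. Levels are CPM, and log2 CPM used a prior count of 2. Each SE was derived from the log2 fold change and its F value. Replicates are clones, so p-values of the fits without a block measure the spread between clones. With the clone as a block few residual degrees of freedom are left, so the error rests largely on a spread pooled over genes. Those p-values only partly measure how far the treatment difference of a gene varied between the WT clones. The library sets as a block take out the main split between clones. They come from the same expression values, so SEs and p-values of that fit are understated for genes that follow the split. Clone numbers pair treated and untreated WT libraries, since both came from the same clones; deviations of same-numbered libraries correlated at 0.681 over 16997 genes. Alternatives were DESeq2 1.42.0, its size factors, library sizes without mitochondrially encoded genes, other filters, other fits, blocks and leaving out each library.

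The text names all members, mitochondrially encoded mRNAs and rRNAs, the genes most like each member and the neighbors of FASTKD2. No machinery gene was called with all libraries in. POLRMT is named because it was called with a library left out. TFAM, TWNK, MTRF1L and MTG1 are named for their unadjusted edgeR P after H2O2 without the block. Members and lists were chosen with earlier results of these data known. Positions and exon lengths come from GENCODE 44, another release than that used for counting. Promoters come from RefSeq (GRCh38.p14).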

Additional observations from a re-analysis of the deposited data

How the results depend on the processing

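Of 243 recounts of called genes over 20 counts, 238 gave the same value as reported. The 5 others all came from leaving out a library, where the lone sample of a group is assumed to vary like the other groups. Members called after H2O2 ranged from 0 to 1, with FASTKD2 called without untreated WT clone 2. Mitochondrially encoded genes called after H2O2 ranged from 0 to 2, with MT-CO1 past the fold limit without untreated WT clone 11 or without treated WT clone 2 (1 gene each), and MT-RNR1 and MT-ND6 without untreated WT clone 2 (2 genes). Machinery genes called in MUTYH-/ ranged from 0 to 1, with POLRMT called without MUTYH-/ clone 8. With the clone as a replicate block the counts of called members, mitochondrially encoded genes and machinery genes after H2O2 stayed at 0, and the block changed no other call reported here.

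With no library left out, directions turned only at values near 0: MT-RNR2 with the library sets as a block (-0.0052 in OGG1-/ and -0.01 in DKO), and TBRG4 in MUTYH-/ with at least 10 counts in every library (-0.0045). This covers the members and both rRNAs. Among the other mitochondrially encoded genes the sets as a block turned MT-ND1 (from 0.09 to -0.06) and MT-ND4L in OGG1-/ and MT-CO3 and MT-ND4 in MUTYH-/, each to a value within its SE of 0. Leaving out a library turned FASTK in all 3 knockouts (-0.19 to 0.19 in MUTYH-/, -0.34 to 0.18 in OGG1-/ and -0.43 to 0.02 in DKO), and many other small values. Over these omissions the log2 fold change after H2O2 ranged from -0.27 to 0.13 for FASTKD1 and from -2.50 to 2.64 for FASTKD2, with the upper value of each reached without untreated WT clone 2, and from -1.03 to 0.24 for MT-RNR1, positive without untreated WT clone 11. TBRG4 in MUTYH-/ ranged from -0.17 (without MUTYH-/ clone 7) to 0.17. In DKO, MT-RNR1 ranged from -0.34 to 1.11 and MT-RNR2 from -0.69 to 0.63, both negative without clone 4, and in OGG1-/, MT-RNR2 ranged from -0.75 (without clone 1) to 0.71. The clones left out of the 2 knockouts were those of set B. FASTKD2 could not be tested where at least 10 counts were required in every library. FASTKD2 rested on 0 to 4 counts in the knockouts, and each genotype on 2 clones.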
